A study of Mus musculus with 12 samples.

Results

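The 8 genes that carry the cadherin switch of epithelial-mesenchymal transition were followed across 12 mouse arrays: the cadherins Cdh1 and Cdh2, the intermediate filament gene Vim, and the transcription factor genes Snai1, Snai2, Twist1, Zeb1 and Zeb2. They were taken by name, with every probe set annotated to them, which gave 12 probe sets of the 22690 on the array and 8 of the 12393 genes that a probe set names alone. Cdh1, Snai1, Snai2, Twist1 and Zeb2 had 1 probe set each, Cdh2 and Zeb1 had 2, and Vim had 3. The arrays were single-colour Affymetrix arrays of total RNA. They covered 3 mammary glands of normal female NMRI mice on day 1 of lactation, 3 glands of female WAP-SVT/t mice of the same strain on the same day, 3 breast cancers of WAP-SVT/t mice, and 3 cell lines derived from such cancers. The transgene gives SV40 T/t antigens in mammary epithelial cells alone, per the labels. By that label, stromal cells of the transgenic glands and tumors would not make them, which was not checked here. The lines are ME-A, the revertant ME-B, and a line that the labels call retransformed, ME-B-T/t; each line has 1 array, so differences between lines have no replicate check. The labels do not say whether the 3 arrays of a tissue group came from separate mice, and p-values measure the spread between these arrays, whose small number limits the precision.

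In epithelial-mesenchymal transition, cells lose the junctions that tie them to their neighbours and take on a filament and adhesion repertoire typical of mesenchymal cells. E-cadherin, the product of Cdh1, holds epithelial cells together at adherens junctions; N-cadherin, the product of Cdh2, replaces it in many mesenchymal cells, which also build vimentin filaments. Snail, Slug, Twist and the Zeb proteins are transcription factors that bind E-box sequences and are known for their part in lowering Cdh1. In normal mammary gland, Cdh1 belongs to the epithelium, whereas vimentin is made by fibroblasts, endothelial and immune cells and by some basal epithelial cells.

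All arrays were scaled to a common trimmed mean, and the text gives these scaled signals. Signals under a floor of 57.3 units, the 30th percentile of all values, were set to the floor before log2 values were taken, and they have no order. Between 69.1% and 73.8% of the probe sets lay above the floor on an array, and no array repeated another. The ratio of the Gapdh signals from the 3′ and 5′ ends, a measure of RNA integrity, was between 2.28 and 40.3 in the glands, 5.63 in tumor 1 and between 0.753 and 0.982 in the other tumors and the lines. The 14 luminal epithelial markers measured were on average at or near gland levels in the tumors (mean log2 signal between 10.00 and 10.64, against 10.20 to 11.13 in the glands) and in ME-A (10.84). Single markers differed in the tissue fit given below: of 13 tested, 3 fell and 1 rose between NMRI glands and tumors. Of all genes tested, 11.7% fell and 12.9% rose there. In the revertant and retransformed lines these markers averaged 6.63 and 6.49, with 8 of the 14 at the floor in each line, so these 2 lines, named breast cancer lines in the labels, lacked most luminal epithelial markers. Skeletal muscle markers were high in the NMRI glands, in transgenic gland 3 and in tumor 1 (mean log2 signal 9.47 to 10.41) and low in the other tissues (5.99 to 6.76).

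The widest differences among the 8 genes lay between the lines. ME-A had a high Cdh1 signal and low signals for Vim, Twist1, Zeb1 and Zeb2, and the other lines had the opposite arrangement. Cdh2 was higher in all 3 lines than in any tissue. In the glands and tumors, Cdh1 stayed high on every array, while Zeb2 lay under the floor and Cdh2 and Twist1 lay near or under it on most arrays. The smaller tissue differences were a higher Vim in transgenic glands and tumors than in NMRI glands and a lower Snai2 in tumors than in NMRI glands. The Vim differences passed the test in the strongest of its 3 probe sets alone.

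**Figure D1:**
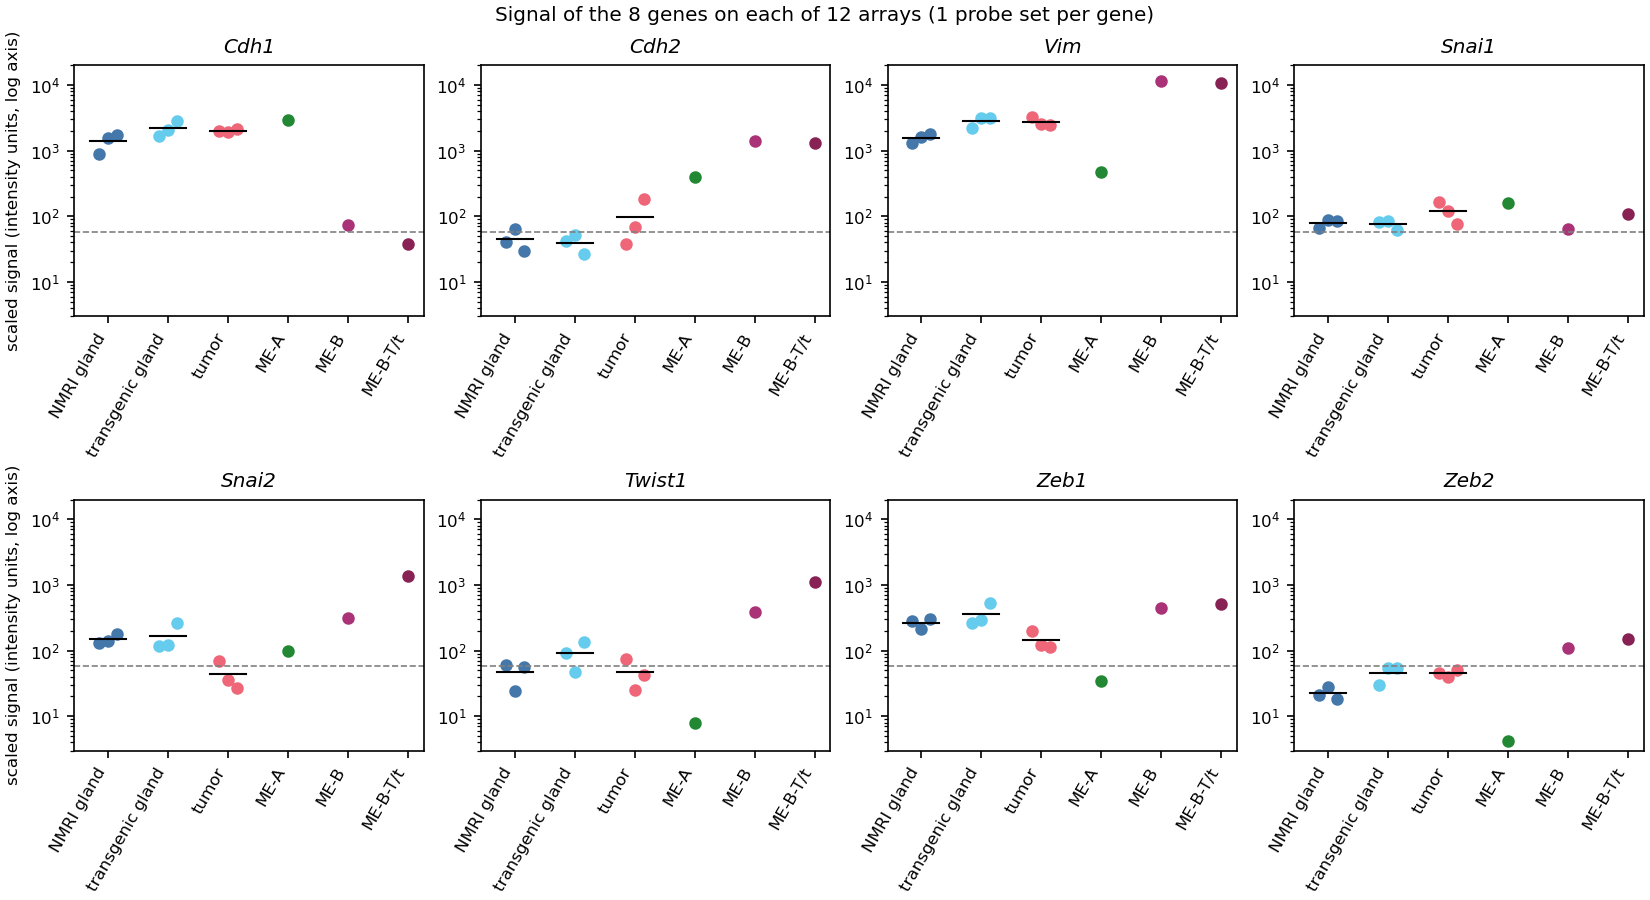
Scaled signal of each of the 8 genes on the 12 arrays, on a log axis, with 1 point per array, a black bar at the mean of each 3-array tissue group and the floor of 57.3 units as a dashed line; the probe set shown is the one with the highest mean signal. Cdh1 drops from 2937 units in ME-A to 74.4 in ME-B, and Vim rises from 481 to 11496.

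The tissue groups were compared in 1 limma fit over 9 arrays, and a gene was tested where at least 3 arrays lay above the median signal of 139.7 units. Cdh1, Vim, Snai2 and Zeb1 passed that filter; Cdh2, Snai1, Twist1 and Zeb2 did not and are given by their signals. Between transgenic and NMRI glands, where 10.1% of the 7902 genes tested passed an adjusted p of 0.05 (478 genes or 6.05% higher and 318 or 4.02% lower in transgenic glands, and 584 and 236 with signals as deposited), 1 of 4 members passed, Vim, which was higher. Between tumors and transgenic glands 2.95% of the genes passed and none of the 4 members did (unadjusted p was under 0.05 for Snai2 and Zeb1). Between tumors and NMRI glands 24.6% of the genes passed (12.9% higher and 11.7% lower), among them Vim (higher) and Snai2 (lower). These comparisons share arrays, so a member's results in them are not independent of each other. With 4 members tested, these counts are not read as a property of the set.

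Cdh1 encodes E-cadherin. Its signal was 882, 1574 and 1724 units in the NMRI glands. It was 1679, 2065 and 2802 in the transgenic glands and 2022, 1892 and 2121 in the tumors. The tumors lay close together and above every NMRI gland, while the transgenic glands overlapped both other groups. Means were 1393 ± 449 (SD, n = 3), 2182 ± 571 and 2012 ± 115 in that order of groups. The log2 difference was 0.67 ± 0.29 (standard error) between transgenic and NMRI glands (adjusted p = 0.164) and 0.59 ± 0.29 between tumors and NMRI glands (adjusted p = 0.158), and neither passed. Between tumors and transgenic glands it was -0.09 ± 0.29 (adjusted p = 0.923), and its sign turned with quantile normalization (0.02). No tissue group thus had a Cdh1 level that differed from another by adjusted p. The unadjusted limma p was 0.0380 between transgenic and NMRI glands. Between tumors and NMRI glands, 43.9% of all genes tested had groups that did not overlap.

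Among the lines Cdh1 took its highest and its lowest signals of all 12 arrays. ME-A had 2937 units, above the highest tissue array. ME-B had 74.4 units and ME-B-T/t 38.1 units, the latter under the floor. ME-A was therefore 39.5-fold above ME-B and at least 51.3-fold above ME-B-T/t. Against the tumor mean, ME-A was 1.46-fold higher, ME-B 27.0-fold lower and ME-B-T/t at least 35.1-fold lower.

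Cdh2, the N-cadherin gene, was near the floor in tissue and raised in every line. Its stronger probe set (1418815_at) read 40.5, 65.0 and 30.02 units in the NMRI glands. It read 41.9, 51.3 and 26.4 in the transgenic glands and 38.3, 68.5 and 183 in the tumors. Tumor 3 was the highest of the 9 tissue arrays, and the other tissue arrays overlapped across all 3 groups. In the lines the same probe set read 394 in ME-A, 1382 in ME-B and 1314 in ME-B-T/t. All 3 lines lay above every tissue array, with ME-A the lowest of them, 3.51-fold under ME-B and 3.33-fold under ME-B-T/t.

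The second Cdh2 probe set (1449244_at) gave the same picture. It read 42.2 to 75.7 units over the 6 glands and 67.1, 83.3 and 167 in the tumors. The lines read 330, 899 and 906 from ME-A over ME-B to ME-B-T/t. Over the 12 arrays, which share the wide gap between lines and tissues, the log2 signals of both probe sets had a Pearson r of 0.997. Tumor 3 was the highest tissue array in this probe set too.

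Taken as 2 cadherins on the same array, log2 Cdh2 minus log2 Cdh1 was set against its mean in the NMRI glands, with signals under the floor at the floor. The 6 glands ranged from -1.13 to 0.54 on this scale. The tumors stood at -0.66, -0.30 and 0.95, where tumor 3 lay above all glands and the other tumors lay among them. ME-A stood at 1.59, ME-B at 8.70 and ME-B-T/t at 9.0. ME-A thus lay within 1 unit of tumor 3, and its shift came with a Cdh1 signal as high as in any tissue, whereas in the ME-B lines both cadherins had moved.

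Vim encodes vimentin, an intermediate filament protein of mesenchymal cells. The strongest probe set (1450641_at) read 1307, 1587 and 1811 units in the NMRI glands. It read 2214, 3143 and 3094 in the transgenic glands and 3270, 2564 and 2454 in the tumors. Every transgenic gland and every tumor lay above every NMRI gland, and the transgenic glands and tumors overlapped. Vim was 1.79-fold higher in transgenic than in NMRI glands (log2 difference 0.84 ± 0.23, adjusted p = 0.0384) and 1.76-fold higher in tumors than in NMRI glands (0.82 ± 0.23, adjusted p = 0.0225). Between tumors and transgenic glands the log2 difference was -0.02 ± 0.23 (adjusted p = 0.978), and its sign turned with quantile normalization (0.12). Groups did not overlap for 31.1% of all genes tested between transgenic and NMRI glands and for 43.9% between tumors and NMRI glands.

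The other Vim probe sets were less clear in tissue, and neither passed in either comparison with NMRI glands. Between tumors and NMRI glands the log2 difference was 0.83 ± 0.33 (adjusted p = 0.100) for 1456292_a_at and 0.34 ± 0.31 (adjusted p = 0.452) for 1438118_x_at. The log2 difference between transgenic and NMRI glands was 0.92 ± 0.33 (adjusted p = 0.118) for 1456292_a_at and 0.54 ± 0.31 (adjusted p = 0.298) for 1438118_x_at, where 9.15% of all probe sets passed; the latter is a probe set whose name marks probes that can match other transcripts. The Vim call between transgenic and NMRI glands ended when NMRI gland 1, NMRI gland 2, transgenic gland 2, transgenic gland 3 or tumor 2 was left out, with adjusted p between 0.0321 and 0.154 over the 9 such fits, and with the mean of the 3 probe sets (adjusted p = 0.106). It held in 7 of 12 other settings. Besides the probe set mean, it ended with no filter (adjusted p = 0.0569), without trend, with these groups alone and without both glands numbered 3. The call between tumors and NMRI glands ended without NMRI gland 1, NMRI gland 2 or tumor 1 (adjusted p between 0.0196 and 0.0894 over the 9 fits) and with the mean of the probe sets (adjusted p = 0.101). In bulk tissue, more cells of a type and more RNA per cell cannot be told apart. Macrophage and myeloid markers moved with Vim: of 15 tested, 4 rose between NMRI and transgenic glands, and 8 rose and 1 fell between NMRI glands and tumors. The summed signal of the 16 measured was 14714 to 21316 units in the NMRI glands, 16123 to 28338 in the transgenic glands and 20923 to 24282 in the tumors, with 1 or 2 markers at the floor on each tissue array. All 11 cell division markers measured rose in both comparisons as well. Among all genes tested, 6.05% rose and 4.02% fell between NMRI and transgenic glands, and 12.9% rose and 11.7% fell between NMRI glands and tumors. Of 15 fibroblast markers tested, 1 rose between NMRI and transgenic glands (Pdgfrb, 2.31-fold, adjusted p = 0.0168), and 2 fell between NMRI glands and tumors. The Gapdh 3′ to 5′ ratio was between 2.28 and 40.3 in the glands and between 0.969 and 5.63 in the tumors. The part of these lists or of RNA integrity in the Vim result was not tested.

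In the lines Vim ran opposite to Cdh1. The strongest probe set read 481 units in ME-A, below every tissue array, and 11496 and 10768 in ME-B and ME-B-T/t, above every tissue array. ME-A was 23.9-fold under ME-B and 22.4-fold under ME-B-T/t. The other probe sets read 316, 5393 and 4523 (1438118_x_at) and 148, 4312 and 3218 (1456292_a_at) from ME-A over ME-B to ME-B-T/t. All 3 probe sets therefore placed ME-A lowest and the ME-B lines highest of the 12 arrays.

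Snai1 encodes Snail, a zinc finger repressor that binds E-boxes. It stayed in a narrow and low range. It read 66.3, 87.2 and 83.8 units in the NMRI glands, 83.0, 85.2 and 62.9 in the transgenic glands, and 164, 122 and 77.2 in the tumors. Tumors 1 and 2 lay above all glands and tumor 3 lay among them. ME-A read 160, ME-B 64.4 and ME-B-T/t 107. Snai1 was thus the factor that did not follow the others in the lines: ME-A, the line with high Cdh1, was 2.48-fold above ME-B and 1.502-fold above ME-B-T/t.

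Snai2 encodes Slug, a relative of Snail found in basal mammary epithelium. It read 129, 141 and 177 units in the NMRI glands. It read 116, 122 and 267 in the transgenic glands and 69.1, 35.1 and 27.1 in the tumors. Every tumor lay below every gland, with tumors 2 and 3 at the floor, while the 2 gland groups overlapped. Of all genes tested, 43.9% did not overlap between tumors and NMRI glands and 19.7% between tumors and transgenic glands. Snai2 was 2.42-fold lower in tumors than in NMRI glands (log2 difference -1.28 ± 0.35, adjusted p = 0.0211). The difference from transgenic glands was as large and did not pass (-1.35 ± 0.35, adjusted p = 0.0672). Because tumors 2 and 3 lay under the floor, both log2 differences understate the gap. Snai2 met the filter on low signals through NMRI glands 2 and 3 and transgenic gland 3, with no tumor above the median.

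The Snai2 call between tumors and NMRI glands ended without NMRI gland 1 (adjusted p = 0.0525), without tumor 2 (0.0584) and without tumor 3 (0.0577). It held in 3 of the 6 fits without 1 array that could test Snai2. Without NMRI gland 2, NMRI gland 3 or transgenic gland 3, and with quantile normalization, the 70th percentile filter or these 2 groups alone, Snai2 no longer met the filter and was not tested. Basal and myoepithelial markers moved in the same direction. Of 9 tested, 9 fell between NMRI glands and tumors and 7 between transgenic glands and tumors, against 924 and 135 of all 7902 genes. The summed signal of the 12 measured was 10239 to 16591 units in the NMRI glands, 10634 to 13761 in the transgenic glands and 2503 to 5431 in the tumors. Between 0 and 2 of these markers were at the floor in a gland and between 2 and 8 in a tumor. The Gapdh 3′ to 5′ ratio moved between these groups too, from 2.28 to 40.3 in the glands to between 0.969 and 5.63 in the tumors. The part of basal cells or of RNA integrity in the Snai2 difference was not tested.

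The lines held the widest Snai2 range. It read 97.6 units in ME-A, 313 in ME-B and 1358 in ME-B-T/t. ME-A lay above all tumors and below all glands, and both ME-B lines lay above all 9 tissue arrays. ME-B-T/t was 4.33-fold above ME-B and 13.9-fold above ME-A, which made Snai2 the member that stood at least 4-fold above both other lines in ME-B-T/t, as 0.516% of the genes did.

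Twist1 encodes a basic helix-loop-helix factor of mesoderm and mesenchyme. In tissue it lay around the floor: 60.2, 24.1 and 56.2 units in the NMRI glands, 90.4, 47.5 and 136 in the transgenic glands, and 73.7, 24.9 and 43.0 in the tumors. The 3 groups overlapped. In the lines it read 7.96 in ME-A, 387 in ME-B and 1096 in ME-B-T/t. Both ME-B lines lay above every tissue array. Set against the floor, ME-A was at least 6.75-fold under ME-B and at least 19.1-fold under ME-B-T/t, and ME-B-T/t was 2.83-fold above ME-B, the same order as for Snai2.

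Zeb1 encodes a zinc finger and homeodomain factor that represses epithelial genes. Its probe set 1418926_at read 279, 215 and 302 units in the NMRI glands. It read 261, 292 and 531 in the transgenic glands and 197, 120 and 115 in the tumors. Every tumor lay below every gland, and the gland groups overlapped. The log2 difference was -1.30 ± 0.33 between tumors and transgenic glands (adjusted p = 0.0615) and -0.92 ± 0.33 between tumors and NMRI glands (adjusted p = 0.0634), so neither passed. The unadjusted limma p was 0.00217 and 0.0173 in that order. Groups did not overlap for 19.7% of all genes between tumors and transgenic glands and for 43.9% between tumors and NMRI glands.

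The Zeb1 differences passed under some settings. The difference from transgenic glands passed without tumor 1 (adjusted p = 0.0400), and the difference from NMRI glands passed without tumor 1 (0.0367), without transgenic gland 3 (0.0306), with quantile normalization (0.0492) and when these 2 groups were fitted alone (0.0425). Tumor 1 had the highest Zeb1 and Snai2 signals of the tumors and also the highest fibroblast markers. The mean log2 signal of the 15 fibroblast markers was 10.40 in tumor 1, 9.01 in tumor 2 and 8.85 in tumor 3, against 9.59 to 10.70 in the glands, and none of the 15 was at the floor in any tissue. Their summed signal was 21208 to 30979 units in the NMRI glands, 25677 to 49902 in the transgenic glands and 12310 to 33162 in the tumors; of 15 tested, 2 fell between transgenic glands and tumors. Transgenic gland 3 had the highest signal of the glands for Cdh1, Snai2, Twist1 and Zeb1, and the highest fibroblast markers among all arrays. Adipocyte markers fell in tumors in 6 of 7 tested against transgenic glands and in 7 of 7 against NMRI glands, with a summed signal of 24507 to 51696 units over the 6 glands and of 14419, 1290 and 1444 in tumors 1, 2 and 3. Tumor 1 thus had the highest adipocyte markers of the tumors too. Of all 7902 genes tested, 135 fell between transgenic glands and tumors and 924 between NMRI glands and tumors. The lower basal markers and the Gapdh ratios given for Snai2 apply here as well. The part of fibroblasts, adipocytes, basal cells or RNA integrity in the Zeb1 values was not tested.

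In the lines Zeb1 read 34.8 units in ME-A, under the floor and below every tissue array. It read 453 in ME-B and 512 in ME-B-T/t, both above every NMRI gland and tumor. ME-A was at least 7.90-fold under ME-B and at least 8.94-fold under ME-B-T/t. The second Zeb1 probe set (1420243_at) lay under the floor on 11 of 12 arrays and read 62.0 in tumor 2, so it gave no measure of the gene. Zeb2, which encodes the related factor Zeb2, was under the floor in all 9 tissues, from 18.3 to 54.7 units. It read 4.18 in ME-A, 108 in ME-B and 150 in ME-B-T/t, so that ME-A was at least 1.89-fold and 2.62-fold under them. Both Zeb genes were therefore measured in the ME-B lines and lay under the floor in ME-A.

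**Figure D2:**
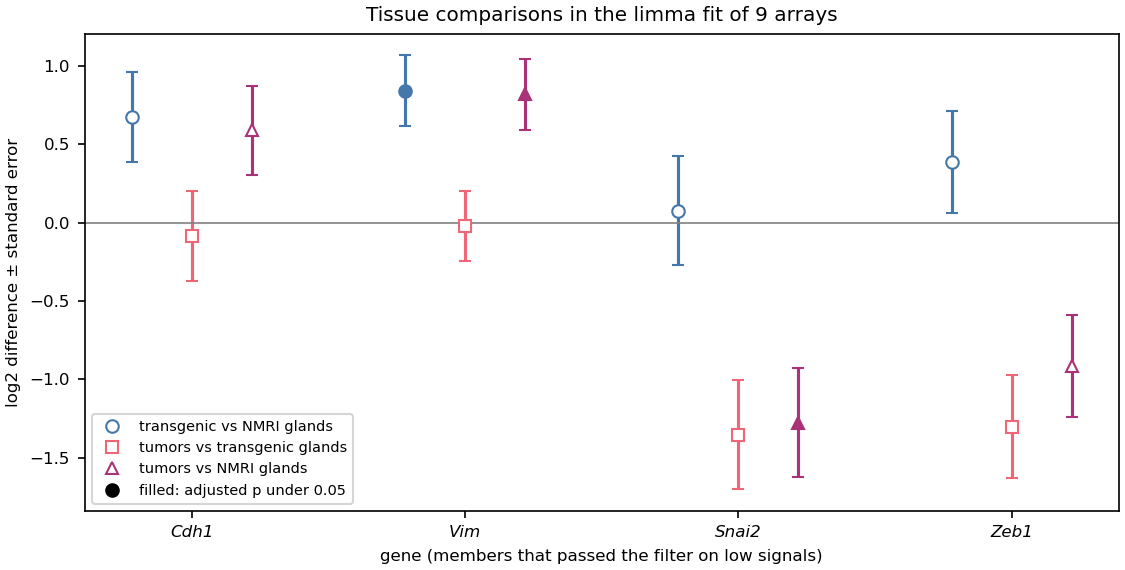
Log2 differences between tissue groups with their standard errors for the 4 genes that passed the filter on low signals, from the limma fit of 9 arrays; filled symbols passed an adjusted p of 0.05. Vim lies at 0.84 and 0.82 in the comparisons with NMRI glands, and Snai2 and Zeb1 lie between -1.35 and -0.92 in both comparisons of tumors.

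**Figure D3:**
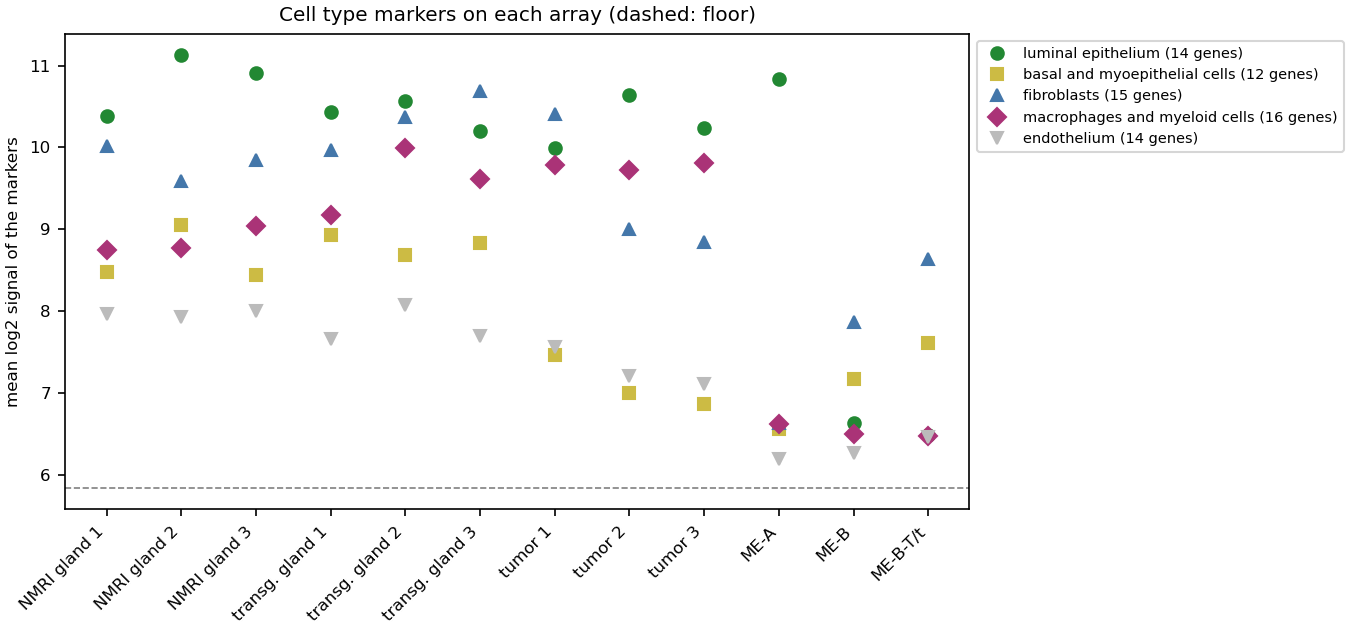
Mean log2 signal of 5 cell type marker lists on each of the 12 arrays, with the floor as a dashed line. Basal and myoepithelial markers stand between 8.44 and 9.05 in the glands and between 6.86 and 7.46 in the tumors, and luminal markers fall from 10.84 in ME-A to 6.63 and 6.49 in the ME-B lines.

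The revertant and retransformed lines are related by their labels, so the 3 lines are not 3 independent cultures of a class. The arrays of these 2 lines correlated at 0.934, as did those of tumors 2 and 3. Set as 2 classes, the 3 lines differed from the 3 tumors by test in 2.3% of 7349 genes. Of the 4 members tested here (Cdh1, Cdh2, Vim and Zeb1), Cdh2 passed: it was at least 9.99-fold higher in the lines (log2 difference 3.32 ± 0.63, adjusted p = 0.0453), and its probe sets passed one by one as well (adjusted p = 0.0440 and 0.0445, against 2.36% of all probe sets). Tumor 1 lay under the floor in the stronger probe set, which understates the gap and narrows the spread of the tumors. Higher calls were 0.422% of the genes. Cdh2 met the filter through the 3 lines and tumor 3. The call held in 4 of 9 other settings and ended in 5, with adjusted p of 0.0512 with quantile normalization, 0.0629 with a lower floor, 0.0563 with 16 units added in place of a floor, 0.0559 with a stricter filter and 0.187 with no filter. Cdh1 (-3.11 ± 1.38, adjusted p = 0.316), Vim (0.51 ± 1.14, adjusted p = 0.849) and Zeb1 (0.77 ± 0.82, adjusted p = 0.677) did not pass; for each of them the lines lay on both sides of the tumors. Without ME-A all 4 members passed: Cdh1 fell by at least 4.94 on the log2 scale (adjusted p = 6.42e-05), Cdh2 rose by at least 3.91 (0.00263), Vim by 2.02 (0.000731) and Zeb1 by 1.79 (0.0138). That fit set the 2 related ME-B lines alone against the tumors, so its p-values take the closeness of these lines as replicate spread. Because ME-A lay on the other side of the tumors for Cdh1, Vim and Zeb1, leaving it out had to widen these differences. Leaving out any other single array of the 6 ended the Cdh2 call, with adjusted p of 0.338, 0.363 and 0.136 without tumor 1, 2 and 3, 0.165 without ME-B and 0.134 without ME-B-T/t. The signals from which these values come do not overlap: each line had more Cdh2 signal than each tumor. Such a separation of lines and tumors held for 23.5% of all genes tested.

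Each line was then placed against the range of the 3 tumors. ME-A lay above the tumors for Cdh1, Cdh2 and Snai2, below them for Vim and Zeb1, and among them for Snai1; for Twist1 and Zeb2 it was under the floor, as were some or all tumors. ME-B and ME-B-T/t lay below the tumors for Cdh1 and above them for Cdh2, Vim, Snai2, Twist1, Zeb1 and Zeb2. For Snai1, ME-B lay below the tumors and ME-B-T/t among them. In the probe sets with the highest signal, the 2 ME-B lines differed from each other by at most 1.39-fold for Cdh2, Vim, Zeb1 and Zeb2, by 1.65-fold for Snai1, and by more for Twist1 and Snai2. Cdh1 was at least 1.30-fold lower in ME-B-T/t, where it lay under the floor.

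The level order over all groups followed from these values. For Cdh1 it ran ME-A, transgenic glands, tumors, NMRI glands, ME-B, ME-B-T/t, and for Vim it ran ME-B, ME-B-T/t, transgenic glands, tumors, NMRI glands, ME-A; in both, the transgenic glands and tumors were neighbours that overlapped. For Zeb1, Snai2, Twist1 and Zeb2 ME-B-T/t was first and ME-B second. For Zeb1 the transgenic glands, NMRI glands, tumors and ME-A came next, and transgenic gland 3 (531 units) overlapped the ME-B level. For Snai2, ME-A came between the NMRI glands and the tumors. In Snai1, no neighbours in the order were apart except ME-B-T/t and the NMRI glands.

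The genes around the 8 members were read in the lines by the same rule of at least 4-fold from both other lines, applied to genes with at least 1 line above the median signal, which 2.83% of 7947 such genes met as higher in ME-A and 2.03% as lower. Of the 8 members, Cdh1 was higher in ME-A and Vim, Twist1 and Zeb1 were lower. Among 36 epithelial adhesion and junction genes, 24 were higher in ME-A and none lower, with a median log2 difference of 2.91 from ME-B and 3.07 from ME-B-T/t, against 2.5e-05 and -0.0049 over all genes. Epcam, an epithelial cell adhesion molecule, read 5308 units in ME-A and was at the floor in both ME-B lines, at least 92.6-fold lower. The tight junction gene Cldn7 (at least 62.0-fold), the mucin gene Muc1 (at least 46.3-fold) and the keratin gene Krt18 (at least 41.8-fold) had the same arrangement. Epithelial transcription and splicing regulators had 6 of 15 higher in ME-A and none lower, led by Elf5 (at least 55.0-fold), a factor of luminal progenitors and milk-producing cells, by Ehf (at least 26.9-fold), and by the splicing factors Esrp1 (at least 21.9-fold) and Esrp2 (at least 13.9-fold). All luminal epithelial markers measured are themselves in these epithelial lists, so their low level in the ME-B lines is not a separate observation.

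Mesenchymal genes lay on the other side. Of 43 mesenchymal cytoskeleton and matrix genes, 15 were lower in ME-A and 1 was higher, the ligand gene Wnt5b (at least 5.05-fold). Sparc, a secreted matrix glycoprotein, read 7114 and 10257 units in ME-B and ME-B-T/t and was at the floor in ME-A, at least 124-fold and 179-fold lower. The collagen genes Col5a2 and Col6a1 were at least 96.6-fold and 46.5-fold lower in ME-A than in ME-B, and S100a4, a calcium-binding protein of motile cells, was 88.1-fold lower. Cdh11, a cadherin of mesenchymal cells and the one other cadherin of 4 read that met the rule, was at least 9.13-fold lower in ME-A than in ME-B and at least 25.8-fold lower than in ME-B-T/t. Fibroblast markers had 4 of 9 lower in ME-A and none higher; the summed signal of the 15 measured was 3335 units in ME-A, 8634 in ME-B and 19155 in ME-B-T/t, with 8, 2 and 2 at the floor, and its part in these values was not tested.

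**Figure D4:**
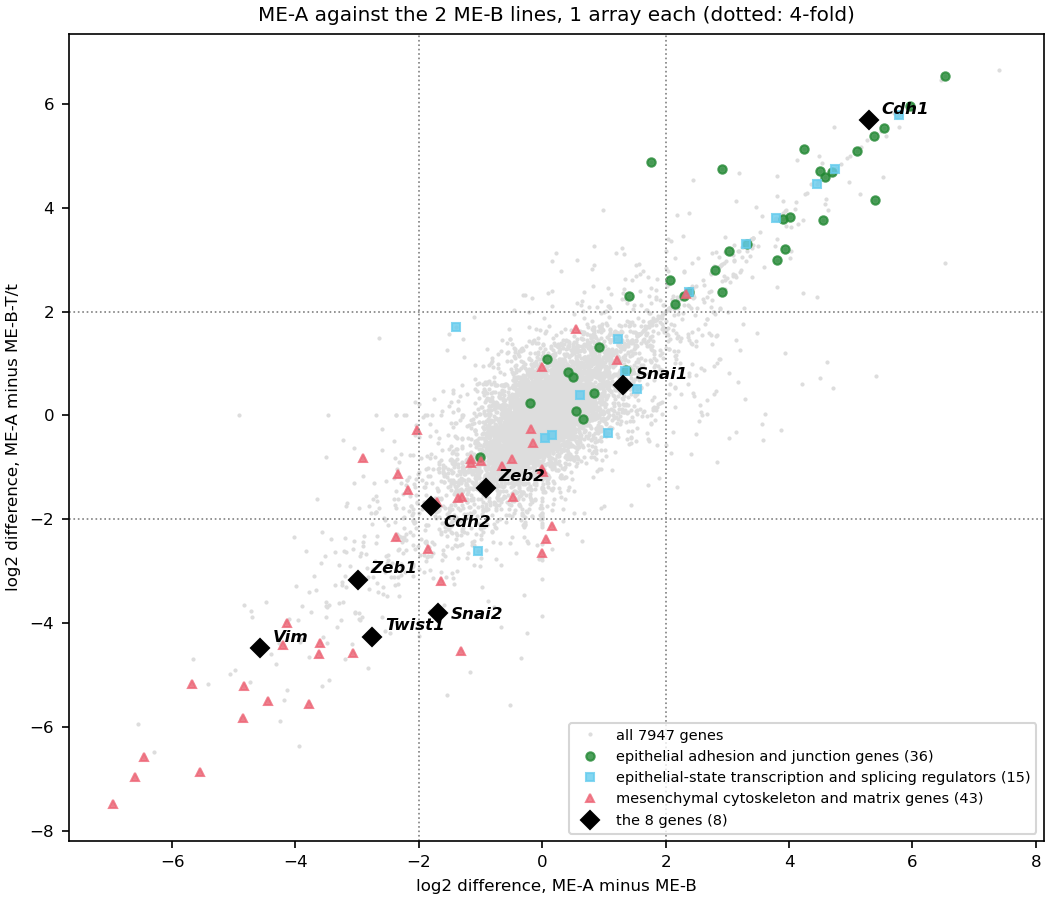
Log2 difference of ME-A from ME-B (horizontal) and from ME-B-T/t (vertical) for every gene read in the lines, with the 8 genes named, 3 gene lists coloured and dotted lines at 4-fold. Cdh1 lies at 5.30 and 5.68 among the epithelial genes, and Vim at -4.58 and -4.48 among the mesenchymal genes.

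Other factors tied to the transition were more divided. Of 22 other such transcription factor genes, 1 was higher in ME-A, the neural crest factor gene Sox10 (9.32-fold above ME-B and 6.96-fold above ME-B-T/t, while another of its probe sets read 1910 units in ME-A and lay under the floor in both other lines), and 2 were lower, the chromatin protein gene Hmga2 (12.7-fold and 10.3-fold) and the homeobox gene Prrx2 (at least 4.29-fold and 7.30-fold). Among 17 TGF-beta signalling genes 2 were lower in ME-A: the receptor gene Tgfbr2 (5.03-fold and 6.02-fold) and Inhba, an activin subunit gene (7.39-fold and 5.01-fold). Among 15 catenins and cadherin-bound proteins, which link cadherins to the cytoskeleton, 1 met the rule, Nectin4, at least 5.64-fold higher in ME-A.

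The same lists were read in tissue by the limma fit, a different criterion from the 4-fold rule of the lines. Between tumors and transgenic glands, where 2.95% of all genes passed, none of 37 epithelial adhesion genes and none of 18 other transition factors passed, while 2 of 46 mesenchymal genes rose and 4 fell. Vcan, a matrix proteoglycan gene, was 4.10-fold higher in tumors (adjusted p = 0.0104), and the contractile genes Tpm2 (4.67-fold, adjusted p = 0.0150) and Acta2 (3.40-fold, adjusted p = 0.0211) were lower. Trp63, the basal cell factor gene, was 3.82-fold lower in tumors than in transgenic glands (adjusted p = 0.0211), and Elf5 was 2.46-fold lower (adjusted p = 0.0292). They were the 2 of 15 epithelial regulators that passed. Trp63 and Acta2 are also in the list of basal and myoepithelial markers, of which 7 of 9 tested fell in this comparison. The part of basal cells in these values was not tested. Between tumors and NMRI glands, where 12.9% of all genes rose and 11.7% fell, 13 of 46 mesenchymal genes rose and 7 fell, and 4 of 37 epithelial adhesion genes rose and 9 fell. TGF-beta signalling genes had 6 of 15 higher and 1 lower in that comparison, among them Ltbp2, a latent TGF-beta binding protein gene (6.53-fold, adjusted p = 0.000528), and Tgfbi, a matrix gene induced by TGF-beta (4.32-fold, adjusted p = 0.00990).

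Other cadherins had 3 of 4 tested that passed between tumors and NMRI glands, where 24.6% of all genes did. Cdh11 was 2.70-fold higher in tumors (adjusted p = 0.0247). Cdh13 was 2.01-fold lower (adjusted p = 0.0144), as was Cdh5, the endothelial cadherin gene, by 2.20-fold (adjusted p = 0.0248). Endothelial markers, a list that holds Cdh5 itself, fell in the same comparison in 5 of 12 tested, with a summed signal of 3822 to 4451 units in the NMRI glands and 2103 to 3117 in the tumors; their part in the Cdh5 value was not tested. Between transgenic and NMRI glands, where 6.05% of all genes rose and 4.02% fell, none of the 4 other cadherins passed, and 5 of 37 epithelial adhesion genes fell, led by Muc1 (5.84-fold, adjusted p = 0.0104), while none rose. Of 46 mesenchymal genes 1 rose, Ccn1 (2.81-fold, adjusted p = 0.0472), and 1 fell, the integrin gene Itga5 (2.35-fold, adjusted p = 0.0115).

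Between lines and tumors the matrix genes Lox (7.79-fold), Col1a2 (21.4-fold) and Vcan (7.84-fold) were lower in the lines, with adjusted p between 0.00514 and 0.0130, and 1 of 45 mesenchymal genes was higher. Of all 7349 genes tested, 138 were lower in the lines. Markers of stromal cells were lower in the lines as well, in 13 of 15 tested for macrophages and myeloid cells, 4 of 13 for fibroblasts (Col1a2 is itself in that list) and 3 of 8 for endothelium. Their summed signals were 20923 to 24282 units in the tumors against 1428 to 3619 in the lines for macrophages, 12310 to 33162 against 3335 to 19155 for fibroblasts, and 2103 to 3117 against 899 to 1310 for endothelium. Their part in the matrix gene and Tgfbi values was not tested. None of 34 epithelial adhesion genes passed. Id1, which encodes an inhibitor of helix-loop-helix factors, was 5.20-fold higher in the lines (adjusted p = 0.0139) and was the 1 of 19 other transition factors that passed. The ligand gene Tgfb2 (4.62-fold higher, adjusted p = 0.0196), the inhibitory Smad6 (3.79-fold higher, adjusted p = 0.0322) and Tgfbi (22.4-fold lower, adjusted p = 0.00177) passed among 17 TGF-beta genes. These calls rest on every tumor: without tumor 1, 2 or 3 only 0, 1 and 3 genes of the whole table passed.

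The genes whose log2 signals ran most like each member over the 12 arrays were sought among about 8190 genes; the 12 points share wide gaps between lines and tissues or between ME-A and the other lines, and the correlations are a description. Cdh1 ran with Grhl2, an epithelial transcription factor gene (Pearson r = 0.98), Epcam (0.98) and Marveld2, a tight junction gene (0.97). Vim ran with the receptor tyrosine kinase genes Axl (0.98) and Pdgfrb (0.97) and with Csgalnact1 (0.96). Zeb1 ran with the caveolin gene Cav1 (0.97) and the matrix receptor genes Antxr2 (0.96) and Antxr1 (0.94). Cdh2 ran with Glipr1 (0.98), Smad6 (0.95) and Adgrl1 (0.95). Snai2 (Emc2, Fam13c and Snx18), Twist1 (Fancf, Prkca and Speg) and Zeb2 (Masp1, Pkd1 and Usp47) had r between 0.93 and 0.97 with theirs. Snai1, the member with the narrowest range, had the weakest likeness, with Josd2, H2-M10.1 and Lypd3 between 0.87 and 0.89.

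Snail, Slug, Twist and Zeb proteins are known to bind E-boxes, and the letters CACCTG, or CAGGTG on the other strand, are the form bound by Snail and Zeb proteins. Promoters were read as the 250 bases before each start in RefSeq (GRCm38.p6), on both strands, where the table held the gene: Vim, Snai1, Twist1 and Zeb2 among the members. Of all 32851 promoters read, 17.2% held CACCTG or CAGGTG, and 66.2% held the wider form CANNTG, which includes it. Snai1 held 1 match, at bases -126 to -121 from the start, and Vim, Twist1 and Zeb2 held none. The epithelial adhesion genes held the motif in 20 of 35 promoters (57.1%). This share covers the whole list, of which 24 of 36 genes read in the lines were higher in ME-A by the 4-fold rule. Epithelial regulators held it in 4 of 13 (30.8%), mesenchymal genes in 3 of 46 (6.52%) and the other transition factors in 0 of 25. The lists differ in base composition from all promoters (median GC content 62.0% in both epithelial lists and in the other factors, 56.8% in the mesenchymal list, 52.4% overall), and several starts of 1 gene overlap. A match is a description of the letters and no evidence that a factor binds there.

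The promoters of Snai1, of Twist1 as a member with no match, and of the epithelial genes Epcam and Cldn7, which had the largest differences in their list between ME-A and the ME-B lines, are printed 5′ to 3′ on the plus strand of GRCm38.p6, with CACCTG and CAGGTG in capitals.
Snai1, chr2:167537945-167538194: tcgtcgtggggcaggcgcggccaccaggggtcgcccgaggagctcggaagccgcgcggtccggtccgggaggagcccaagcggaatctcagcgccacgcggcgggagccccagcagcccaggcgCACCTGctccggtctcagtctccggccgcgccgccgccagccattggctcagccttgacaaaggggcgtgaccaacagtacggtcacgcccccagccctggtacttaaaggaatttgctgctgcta
Twist1, chr12:33957421-33957670: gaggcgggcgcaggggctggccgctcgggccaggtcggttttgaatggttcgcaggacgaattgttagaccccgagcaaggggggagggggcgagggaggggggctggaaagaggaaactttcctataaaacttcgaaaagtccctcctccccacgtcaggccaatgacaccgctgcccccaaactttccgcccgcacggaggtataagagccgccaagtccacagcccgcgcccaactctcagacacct
Epcam, chr17:87635729-87635978: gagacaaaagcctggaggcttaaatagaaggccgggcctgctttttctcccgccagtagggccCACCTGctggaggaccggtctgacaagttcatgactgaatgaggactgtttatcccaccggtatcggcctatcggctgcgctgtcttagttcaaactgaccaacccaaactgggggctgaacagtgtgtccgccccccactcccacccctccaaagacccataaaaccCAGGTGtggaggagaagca
Cldn7, chr11:69965171-69965420: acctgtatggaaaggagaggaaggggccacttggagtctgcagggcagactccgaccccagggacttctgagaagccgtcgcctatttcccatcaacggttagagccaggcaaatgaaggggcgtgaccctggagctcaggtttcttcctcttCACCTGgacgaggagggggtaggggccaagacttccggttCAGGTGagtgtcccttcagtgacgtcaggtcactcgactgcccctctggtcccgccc
Epcam and Cldn7 carried the motif 2 times each, once in either orientation, and Twist1 carried it in neither.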

How the data were processed

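Gene expression was measured on 12 single-colour arrays, with 3 arrays in each of 3 tissue groups and 1 in each of 3 lines. The deposited values are intensity signals, computed with MAS5 per the submitters' processing notes; scanner data were not used here, with other settings not given in the sources used here. RNA came from frozen tissue per the labels' protocols.

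Each array was scaled to a common 2% trimmed mean, a floor at the 30th percentile of all signals replaced lower ones, and values were put on the log2 scale. Symbols came from the platform's annotation (20380 of 22690 probe sets named 1 gene, 691 several, 1555 none; 64 controls were left out), updated through RefSeq GRCm38.p6. Each gene was read from 1 probe set, chosen per fit by the highest mean of its log2 signals. Genes with at least 3 arrays of a fit above the pooled median were tested with limma 3.58.1 (lmFit, eBayes with trend) in R 4.3.3, two-sided, with Benjamini-Hochberg adjustment over all genes. All members were named, with up to 3 genes per related list and comparison (smallest p, groups not overlapping), up to 4 per list in the lines and the 3 most alike each member. Members and lists were chosen with earlier results of these data known. The fits were tested on simulated data.

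Replicate numbers are shared by the tissue groups. Same-numbered NMRI and transgenic glands deviated together (correlations 0.22, 0.37 and 0.37), while tumors did not pair with them (from -0.17 to 0.33). The labels give no pairing, and the main fits used none. A replicate block was run as an alternative. The Gapdh 3′ to 5′ ratio followed the numbers too, with 12.9, 2.28 and 40.3 in NMRI and 10.7, 2.49 and 22.5 in transgenic glands. Its part in these correlations was not tested. Alternatives covered scaling, floor, filter, probe set choice, the fit's samples and trend, the replicate block and leaving out arrays. Figures were drawn with matplotlib 3.10.9.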

Additional observations from a re-analysis of the deposited data

How the results depend on the processing

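Members that passed between transgenic and NMRI glands dropped from 1 to 0 with no filter, the mean of all probe sets, no trend, only these 2 groups, or without NMRI gland 3 and transgenic gland 3 together, the last chosen after seeing the data. Between tumors and transgenic glands the genes that passed changed from 233 to 71 with no filter, 124 with only these 2 groups and 94 without both glands numbered 3; the members that passed rose from 0 to 1 (Snai2, adjusted p = 0.0470) with the mean of all probe sets. Cdh1 and Vim turned sign there with quantile normalization (0.016 and 0.12) and without both glands numbered 3 (0.11 and 0.055, log2). Between tumors and NMRI glands the members that passed dropped from 2 to 1 with the filter at the 70th percentile, the mean of all probe sets, and without both glands numbered 3. Between lines and tumors they dropped from 1 to 0 with quantile normalization, the floor at the 15th percentile, 16 units added in place of a floor, the 70th percentile filter and no filter; the genes that passed changed from 169 to 95 and 91 with the last 2, and to 430 with all 12 arrays in 1 fit. The cause was not tested.

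Leaving out 1 array gave 395 to 806 genes between transgenic and NMRI glands (796 with all arrays), 69 to 229 between tumors and transgenic glands, 1228 to 2272 between tumors and NMRI glands (1947 with all arrays) and 0 to 783 between lines and tumors. Members that passed ranged from 0 to 1, 0 to 1, 0 to 2 and 0 to 4 in that order. Log2 values that turned sign ranged from -0.021 to 0.29 (Snai2, transgenic against NMRI glands), -0.26 to 0.11 (Cdh1) and -0.19 to 0.066 (Vim) between tumors and transgenic glands, and -0.27 to 2.02 (Vim, lines against tumors). With the replicate block the counts were 930, 283 and 2154 genes in the 3 tissue comparisons, and 1174 for the 6 glands alone; no member's call changed. Lines carry no shared numbers. Zeb2 in ME-A depended on the floor: its log2 difference from ME-B was -0.91, and -2.47 and -2.62 under the other floors. Signals near the floor limit Cdh2, Snai1, Twist1 and Zeb2 in tissue.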
